A study of Mus musculus with 6 samples.

Results

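Imprinted genes are expressed mainly from the copy inherited from one parent. The set described here holds 40 mouse genes picked by symbol from the known imprinted clusters, with the Meg3 locus on chromosome 12 at its centre. All 40 had a row in the deposited table of 55416 genes, and 32 of them reached at least 1 FPKM in at least 3 libraries, as did 14229 genes in all. FPKM is a fragment count divided by the length of the transcript and the size of the library, so levels are given per length. The set was put forward because Meg3 had already been seen to differ between the groups of these same libraries. Meg3 is therefore described without a test and left out of the counts of members called, and the counts over the set support nothing by themselves.

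RNA was sequenced from primary neurons of wild-type (WT) mouse brain, infected in culture with an adeno-associated virus (AAV) whose insert was driven by the human synapsin promoter, a promoter active mainly in neurons. The virus held miR-9-3p for 3 of the libraries. The remaining 3 came from a control virus, AAV-scramble by the titles and treatment labels and AAV-hsyn-mCherry by the protocol and design text. The groups are called miR-9-3p AAV and control AAV, and the labels do not say if replicates were separate cultures, so p-values here measure only library-to-library spread, possibly a technical one. Age, sex and brain region were not given.

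Imprinting rests on DNA methylation laid down differently in egg and sperm at imprinting control regions. One such region usually sets the active parental copy of a whole cluster of neighbouring genes, often through a long noncoding RNA. Many imprinted genes are expressed strongly in the developing and adult brain, and defects of the human counterparts of the Snrpn-Ube3a cluster underlie Prader-Willi and Angelman syndromes. The libraries measure total RNA of a gene and carry no information used here on which parental copy it came from.

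The delivered microRNA is the 3′ arm of the miR-9 hairpin, and its sequence is shown because its seed is what the members' transcripts were searched for. RefSeq (GRCm38.p6) lists the identical mature sequence at Mir9-1 (chr3:88215652-88215673, plus strand), Mir9-3 (chr7:79505318-79505339, plus strand) and Mir9-2 (chr13:83738858-83738879, plus strand). Capitals mark the seed, bases 2 to 8.
miR-9-3p: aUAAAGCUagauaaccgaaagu
The letters that pair with it in a transcript are AGCTTTA for positions 2 to 8, and GCTTTAA for positions 2 to 7 followed by A.

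The number of reads recovered in named genes was 16063214 to 17495210 per library. Genes known from lung epithelium were detected in all 6 libraries. How this RNA, called lung RNA below, came into the libraries is unknown and was not tested. The lung level was taken as the median log2(FPKM + 1) of 8 surfactant and other alveolar type 2 genes and is given as a ratio to the library where it was lowest, miR-9-3p AAV 3. Control AAV 1, 2 and 3 had ratios of 2.67, 3.89 and 11.7, while miR-9-3p AAV 1 and 2 had ratios of 3.46 and 1.06. Bpifa1, an airway secretory gene, split the libraries into those where it stood at 0.939% to 0.966% of Scgb1a1 (control AAV 2 and 3, miR-9-3p AAV 1) and those where it stood at 0% to 0.0293% (control AAV 1, miR-9-3p AAV 2 and 3). All 9 neuronal markers were detected, with a summed level of 820 to 1279 FPKM in the control AAV and 1162 to 1428 FPKM in the miR-9-3p AAV libraries. The 7 astrocyte markers summed to 298 to 306 FPKM in the control AAV libraries and 213 to 228 FPKM in the miR-9-3p AAV libraries, with Gfap called lower, 5 of the 7 lower and 2 higher without overlap. The part of these markers in the members' differences was not tested. In bulk RNA, fewer cells of a type and less RNA per cell cannot be told apart.

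Of the 31 members tested other than Meg3, 1 was called higher in the miR-9-3p AAV libraries, Grb10, and 0 were called lower (limma on log2(FPKM + 1), Benjamini-Hochberg adjusted p under 0.05 over 14229 genes). Across all genes tested, 3.89% were called higher and 2.4% lower, so 1 of 31 is near the background. At an unadjusted p under 0.05, 6 of the 31 were higher and 3 were lower, where 14% and 12.8% of all genes were, and limma-voom on the recovered reads also called 1 higher and 0 lower. Without any 1 library, limma called 0 of the 31 in either direction, with 3 to 7 higher and 1 to 5 lower at an unadjusted p under 0.05. Over the whole table it then called 0 genes, except without control AAV 3, where it called 460 higher and 272 lower.

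The median log2 difference was 0.06 over the 31 members and -0.02 over all genes, with 20 members above 0 and 11 below. Of all genes tested, 6732 lay above 0 and 7497 below. The libraries of the 2 groups did not overlap for 6 members that were higher (Igf2r, Peg3, Copg2, Snhg14, Grb10 and Plagl1) and for 6 that were lower (Sgce, Mest, Nap1l5, Impact, Cdkn1c and Inpp5f). The same held for 18.2% of all genes tested in the higher direction and 16.7% in the lower.

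Members of both parental origins lay on both sides of 0. Of the 14 members listed as expressed from the maternal copy, Meg3 among them, 11 were tested, and 7 lay above 0 with a median log2 difference of 0.09. Igf2r is counted as maternal here, although its silencing by Airn is known from outside neurons. Of the 24 listed as paternal, 19 were tested, and 12 lay above 0 with a median of 0.02. The 5 noncoding RNAs tested, Meg3 again among them, had a median of 0.16 and the 27 protein-coding members one of 0.05. These medians are descriptions, and the differences between them were not tested.

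**Figure D1:**
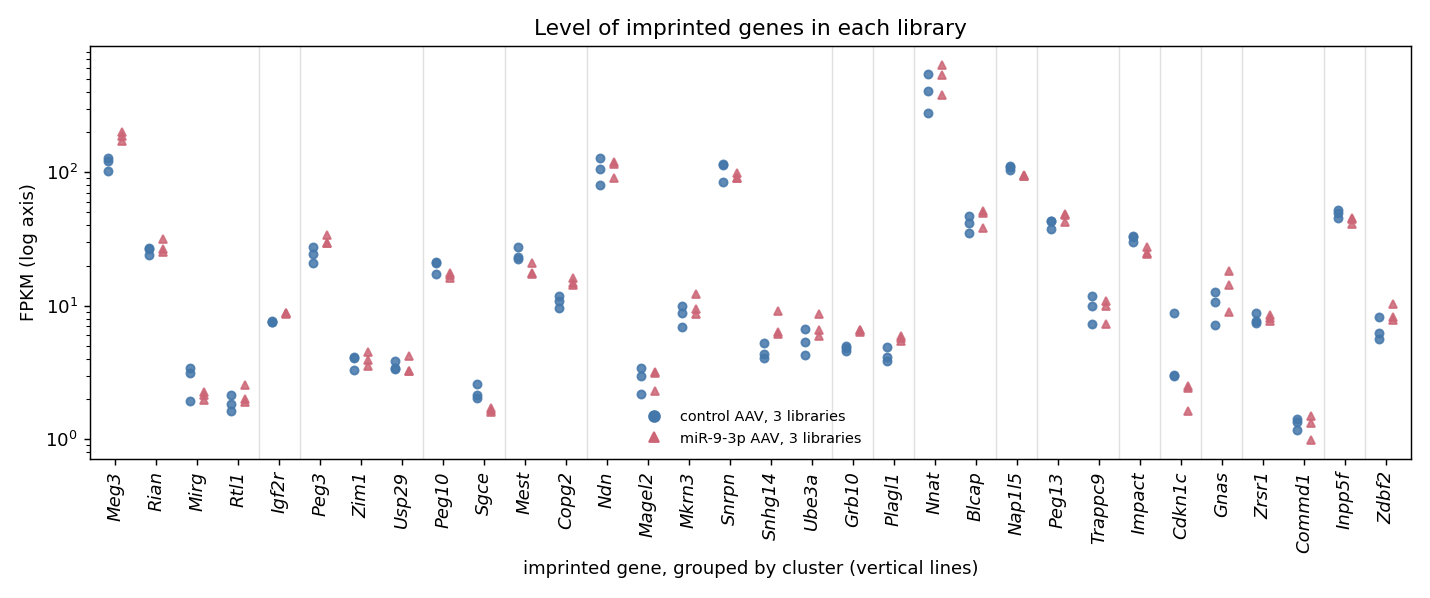
FPKM of the 32 members tested in each of the 6 libraries, on a log axis, with vertical lines between clusters; each point is 1 library, circles for control AAV and triangles for miR-9-3p AAV. Meg3 lies between 103.0 and 128.0 FPKM in the control AAV libraries and between 172.4 and 198.8 FPKM in the miR-9-3p AAV libraries, with no overlap.

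The Dlk1-Meg3 cluster of chromosome 12 expresses noncoding RNAs from the maternal copy and protein-coding genes from the paternal one. Meg3 (chr12:109541001-109571726, plus strand) is a long noncoding RNA kept largely in the nucleus. In the order of replicate numbers, it measured 122.5, 128.0 and 103.0 FPKM with the control virus and 198.8, 172.4 and 185.9 FPKM with the miR-9-3p virus. Every miR-9-3p AAV library was above every control AAV library. The means were 118 ± 13.1 and 186 ± 13.2 FPKM (SD, n = 3 each), a ratio of 1.58 and a difference of 0.66 on the log2(FPKM + 1) scale (SE 0.12). Between 33076 and 61759 reads stood behind each Meg3 value. Within the libraries that held Bpifa1 the log2 difference was 0.79, and within those near 0 for Bpifa1 it was 0.54. Over all the alternatives it ran from 0.38 to 0.74. The lincRNA gene Gm26906 overlaps 1228 exonic bases of Meg3 on the other strand.

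The other maternal RNAs of the cluster overlapped between the groups. Rian (chr12:109603940-109661716, plus strand), the host of a snoRNA array, measured 26.5, 27.1 and 24.1 FPKM in the control AAV and 31.5, 26.4 and 25.3 FPKM in the miR-9-3p AAV libraries. The groups overlapped, and the log2 difference was 0.09 (SE 0.11, adjusted p = 0.617, limma). Mirg (chr12:109729764-109749460, plus strand), the host of a microRNA cluster at the far end, measured 3.40, 3.16 and 1.95 FPKM against 1.96, 2.27 and 2.16 FPKM. Its 2 highest libraries were both control AAV, and its log2 difference was -0.27 (SE 0.17, adjusted p = 0.338). Both RNAs lie downstream of Meg3 on the same strand.

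Set against Meg3 in the same library, the distal RNAs took a smaller share in every miR-9-3p AAV library. Rian was 21.6%, 21.1% and 23.3% of the Meg3 level in the control AAV and 15.8%, 15.3% and 13.6% in the miR-9-3p AAV libraries. Mirg was 2.78%, 2.47% and 1.89% of Meg3 against 0.984%, 1.32% and 1.16%. Rtl1, expressed from the paternal copy on the other strand, also took a smaller share of Meg3, at 1.43% to 1.75% against 1.01% to 1.37%. None of these ratios overlapped between the groups, while Mirg as a share of Rian did, at 8.09% to 12.8% against 6.21% to 8.60%. The ratios to Meg3 share it as their divisor, so they follow the Meg3 difference that put the set forward, and none was tested. They do not depend on how libraries are scaled to each other. In other clusters, the ratios of Ndn to Snrpn, Sgce to Peg10, Usp29 to Peg3, Blcap to Nnat and Trappc9 to Peg13 overlapped.

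**Figure D2:**
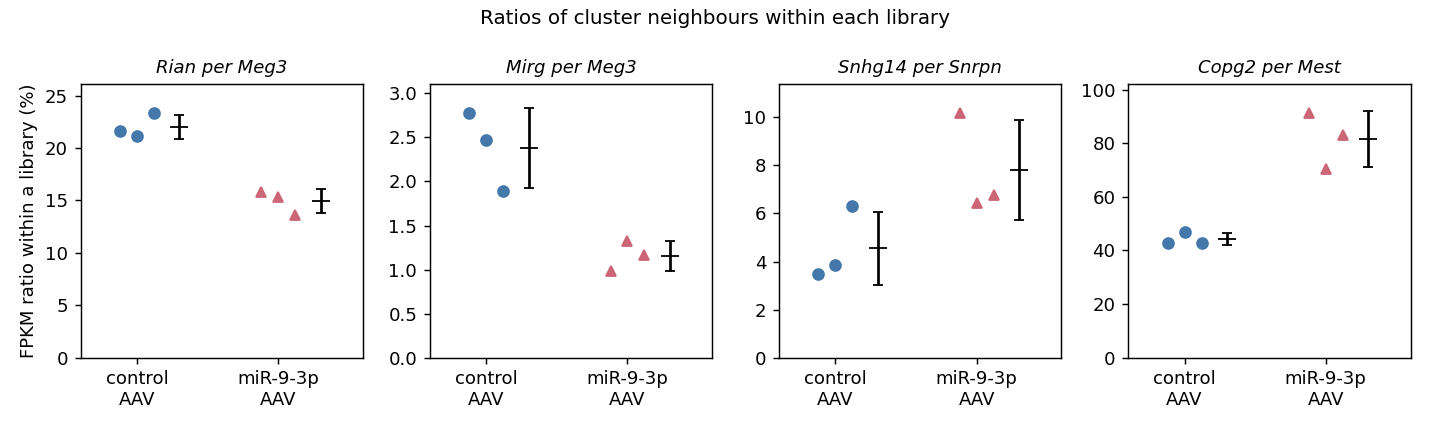
Ratio of the FPKM of neighbouring members within each library, in percent, from axes that start at 0; each circle (control AAV) or triangle (miR-9-3p AAV) is 1 library, and the black marks are the group mean with its SD (n = 3). Only pairs whose groups did not overlap are shown. Rian per Meg3 falls between 21.1% and 23.3% in the control AAV libraries and between 13.6% and 15.8% in the miR-9-3p AAV libraries.

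The paternal genes of the cluster were low in these cultures. Rtl1 (chr12:109589193-109600330, minus strand), a retrotransposon-derived gene whose transcript runs opposite to several maternal microRNAs, measured 2.14, 1.83 and 1.62 FPKM in the control AAV and 2.01, 1.90 and 2.55 FPKM in the miR-9-3p AAV libraries. The groups overlapped, with a log2 difference of 0.14 (adjusted p = 0.531, limma). Dlk1, a transmembrane protein related to Notch ligands, stayed under 1 FPKM in all libraries, at 0.34 to 0.97 FPKM. Dio3, the deiodinase that inactivates thyroid hormone, rested on 2 to 4 reads per control AAV library and 10 to 19 per miR-9-3p AAV library, at 0.0549 to 0.123 against 0.291 to 0.552 FPKM. The groups did not overlap for Dio3, but it did not reach the level at which genes were tested. Of the 59 microRNA genes annotated in the Dlk1-Meg3 interval, 15 reached that level, and since such genes share letters with their hosts their values are not given as microRNA levels.

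The promoter of Meg3 is shown because it holds one full cAMP response element, the palindrome TGACGTCA that proteins of the CREB family bind. The letters were searched on both strands of the RefSeq GRCm38.p6 windows running from 250 bases before to 50 bases after each annotated start, of which 48 belonged to 32 members. The element was present in 4 member windows, those of Meg3, Peg3, Usp29 and Zdbf2, and in 1.79% of all 32851 windows. The windows of Peg3 and Usp29 overlap, since the 2 genes start close together on opposite strands, and they share the same element. The motif was chosen after the values had been seen, and a match is a description, not a bound site. Capitals mark TGACGTCA and, in the Meg3 window, also GCGGCA, the other strand of TGCCGC, the hexamer bound by the imprint-protecting factor ZFP57 when methylated.
Meg3, chr12:109540746-109541045, plus strand: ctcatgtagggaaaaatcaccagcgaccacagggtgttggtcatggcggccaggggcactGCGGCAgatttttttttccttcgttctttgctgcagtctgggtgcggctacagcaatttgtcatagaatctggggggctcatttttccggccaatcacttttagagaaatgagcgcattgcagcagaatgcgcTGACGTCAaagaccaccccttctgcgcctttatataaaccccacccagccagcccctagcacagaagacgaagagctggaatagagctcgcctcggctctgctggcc
Peg3, chr7:6730370-6730669, minus strand: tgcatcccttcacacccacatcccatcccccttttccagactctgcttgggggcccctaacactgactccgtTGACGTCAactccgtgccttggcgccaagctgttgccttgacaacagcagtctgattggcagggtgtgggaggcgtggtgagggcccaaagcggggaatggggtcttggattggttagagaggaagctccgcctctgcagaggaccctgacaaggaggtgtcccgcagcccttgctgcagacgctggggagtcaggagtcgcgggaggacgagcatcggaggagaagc
Zdbf2, chr1:63273019-63273318, plus strand: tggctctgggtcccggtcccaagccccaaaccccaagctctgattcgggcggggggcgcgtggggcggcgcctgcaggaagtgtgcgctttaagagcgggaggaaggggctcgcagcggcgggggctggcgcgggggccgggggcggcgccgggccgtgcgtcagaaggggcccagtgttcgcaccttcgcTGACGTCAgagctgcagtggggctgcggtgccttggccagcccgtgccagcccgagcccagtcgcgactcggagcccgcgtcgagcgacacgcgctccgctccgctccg
TGCCGC stood in 13 of the 48 member windows, from 12 members, and in 11.6% of all windows. The Mest windows among them, chr6:30737800-30738099 and chr6:30737803-30738102, overlap and hold the same sites. The GC box CCCGCC stood in 21 member windows and 35.3% of all, and the YY1 core AAAATGG in 3 member windows and 5.17% of all, also on either strand.

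The other members with the element were measured at middle levels. Peg3 (chr7:6703892-6730431, minus strand), a zinc finger protein expressed from the paternal copy, measured 21, 24.6 and 27.4 FPKM in the control AAV and 33.6, 29.3 and 29.7 FPKM in the miR-9-3p AAV libraries. The groups did not overlap, and the log2 difference of 0.34 (SE 0.12) did not pass (adjusted p = 0.138, limma). In the fit with a lung covariate it was 0.56 (adjusted p = 0.00962). Usp29, a ubiquitin protease gene that starts beside it on the other strand, had a log2 difference of 0.00, and the neighbouring zinc finger gene Zim1, expressed from the maternal copy, one of 0.05. Zdbf2, expressed from the paternal copy and involved in feeding and growth in newborn mice, measured 5.60 to 8.23 FPKM against 7.87 to 10.3 FPKM, with a log2 difference of 0.36 (adjusted p = 0.205).

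Across the Snrpn-Ube3a cluster of chromosome 7, 5 of the 6 members had a log2 difference above 0 and 0 were called. Ndn and Magel2 among them lay at only 0.06 and 0.01. With a lung covariate, Ndn, Magel2, Mkrn3 and Snrpn lay below 0, at -0.37, -0.34, -0.10 and -0.38. Snhg14 (chr7:59307924-59975759, minus strand), the long paternal noncoding RNA that hosts the Snord115 and Snord116 arrays and silences paternal Ube3a in neurons, stood at 4.04, 4.35 and 5.29 FPKM in the control AAV libraries. In the miR-9-3p AAV libraries it stood at 9.21, 6.35 and 6.17 FPKM. The groups did not overlap, and the log2 difference was 0.55 (SE 0.17, adjusted p = 0.0981, limma), or 0.91 with a lung covariate (adjusted p = 0.00682). Ube3a (chr7:59228750-59311536, plus strand), the ubiquitin ligase lost in Angelman syndrome, measured 4.29, 5.35 and 6.66 FPKM against 8.74, 6.63 and 5.97 FPKM. Its groups overlapped, and the log2 difference was 0.34 (SE 0.18, adjusted p = 0.277), or 0.74 with the covariate (adjusted p = 0.00814).

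Snhg14 and Ube3a run against each other, and 1803 bases of their annotated exons overlap. No source used here gives the strand setting of the authors' counting, so reads of the shared stretch cannot be assigned to one of them. Snhg14 was 94.2%, 81.2% and 79.4% of Ube3a in the control AAV libraries and 105%, 95.6% and 103% in the miR-9-3p AAV libraries. Set against Snrpn, it was 3.49%, 3.85% and 6.30% against 10.2%, 6.46% and 6.78%. Neither ratio overlapped between the groups, although in the second the highest control value, 6.30%, lay close to the lowest miR-9-3p value, 6.46%.

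The shorter paternal genes of this cluster overlapped between the groups. Snrpn (chr7:59982495-60140219, minus strand), a protein of the spliceosome in neurons, measured 116, 113 and 84.0 FPKM in the control AAV and 90.4, 98.3 and 90.9 FPKM in the miR-9-3p AAV libraries, a log2 difference of -0.15 (adjusted p = 0.542, limma). It shares 589 exonic bases on the same strand with Gm38393, which measured 3.03 to 5.88 FPKM against 6.66 to 11.4 FPKM, so how the counting divided their reads is uncertain. Ndn, a MAGE-family protein of postmitotic neurons, measured 128, 106 and 80.7 FPKM against 90.9, 116 and 118 FPKM, a log2 difference of 0.06 (adjusted p = 0.875). In both groups the order of the libraries by Ndn was the reverse of their order by lung level.

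Magel2, a second MAGE-family gene, measured 3.43, 2.96 and 2.19 FPKM in the control AAV and 2.29, 3.18 and 3.16 FPKM in the miR-9-3p AAV libraries, with a log2 difference of 0.01 (adjusted p = 0.974, limma). Mkrn3, a ring finger protein known for restraining puberty, measured 10.04, 8.78 and 6.95 FPKM against 8.73, 9.50 and 12.3 FPKM, with a log2 difference of 0.22 (adjusted p = 0.425). The lowest control AAV library of both genes, as of Ndn and Snrpn, was the one with the most lung RNA.

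Grb10 (chr11:11930508-12038683, minus strand), an adaptor protein that restrains insulin and growth factor receptors and is expressed from the paternal copy in mouse neurons, rose in the miR-9-3p AAV libraries. It measured 4.55, 4.85 and 5.01 FPKM in the control AAV and 6.62, 6.38 and 6.61 FPKM in the miR-9-3p AAV libraries. The lowest miR-9-3p AAV library lay above the highest control AAV library, on 662 to 1033 reads each. The means were 4.80 ± 0.232 and 6.54 ± 0.135 FPKM (SD, n = 3 each), a ratio of 1.36 and a log2 difference of 0.38 (SE 0.08, limma with Benjamini-Hochberg adjustment over all genes, adjusted p = 0.0437). Over the alternatives its adjusted p ran from 0.0176 to 0.274. It was not called when any 1 library was left out, with an adjusted p of 0.0517 without control AAV library 3 and 0.104 to 0.165 without any other. The difference was 0.36 within the libraries that held Bpifa1 and 0.43 within the others.

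Mest and Copg2 overlap tail to tail on chromosome 6 and lay on opposite sides of 0. Their values, like those of the members that follow, were chosen for mention after they had been seen, except those of Nap1l5 and Nnat. Mest (chr6:30723547-30748465, plus strand), a paternally expressed enzyme of the alpha/beta hydrolase fold, measured 22.5, 23.3 and 27.7 FPKM in the control AAV and 17.7, 20.9 and 17.2 FPKM in the miR-9-3p AAV libraries. Its log2 difference was -0.38 (SE 0.12, adjusted p = 0.108, limma). Copg2 (chr6:30747554-30896794, minus strand), a coat protein of Golgi vesicles expressed mostly from the maternal copy, measured 9.65, 10.9 and 11.9 FPKM against 16.1, 14.8 and 14.2 FPKM. Its log2 difference was 0.44 (SE 0.10, adjusted p = 0.0557), or 0.61 with a lung covariate (adjusted p = 0.00803). Neither gene overlapped between the groups. Copg2 passed when genes had to reach 5 FPKM (adjusted p = 0.045) and without the library highest in lung RNA in either group (adjusted p = 0.0388). Over all the alternatives the adjusted p of Copg2 ran from 0.00803 to 0.283 (limma). It was not called when any 1 library was left out.

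Copg2 was 42.9%, 46.8% and 43.0% of Mest in the control AAV libraries and 91.3%, 70.5% and 82.9% in the miR-9-3p AAV libraries. The 912 shared exonic bases cannot be assigned without the strand. Copg2 was also the member with the most seed matches, 3 in a 3′ UTR of 1303 bases, and Mest had 0. The Copg2 sites are shown because they are matches to the delivered microRNA in a member whose level was higher in every miR-9-3p AAV library. They were read from GENCODE M21 on GRCm38, minus strand, with the match in capitals.
Copg2 site 1, chr6:30748658-30748686: ctttgagcatgAGCTTTAgagtttcttcc
Copg2 site 2, chr6:30748328-30748356: tcaataatgctGCTTTAActaagttaaaa
Copg2 site 3, chr6:30747792-30747820: tgaacccaaggGCTTTAAcatgctaggca
Sites 2 and 3 lie in the stretch that Mest overlaps, and site 1 lies outside it.

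Seed matches were present in 11 of the 27 tested members with an annotated 3′ UTR, or 40.7%, against 2585 of 12205 tested genes, or 21.2%. The median 3′ UTR length was 1444 bases for the members and 1426 for all. Members with a match were found on both sides of 0. Blcap held 2 and had a log2 difference of 0.17. Impact, Nap1l5, Inpp5f and Cdkn1c held 1 each and were lower without overlap between the groups, while Plagl1 held 1 and was higher without overlap. Ndn, Trappc9, Zrsr1 and Zdbf2 also held 1 each, and their groups overlapped, with log2 differences of 0.06, -0.04, 0.02 and 0.36. The Cdkn1c site pairs with positions 2 to 8 and is followed by A, and it and the Plagl1 site are shown for contrast.
Cdkn1c site, chr7:143458790-143458819, minus strand: ccaaggtgtaaAGCTTTAAatcatttatgt
Plagl1 site, chr10:13129699-13129727, plus strand: gcccattgtgtAGCTTTAtagagtgtgac
Grb10 held 0 in a 3′ UTR of 2955 bases. The longest annotated transcripts of Meg3, Rian and Mirg, of 14548, 8089 and 3822 bases, held 0.

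**Figure D3:**
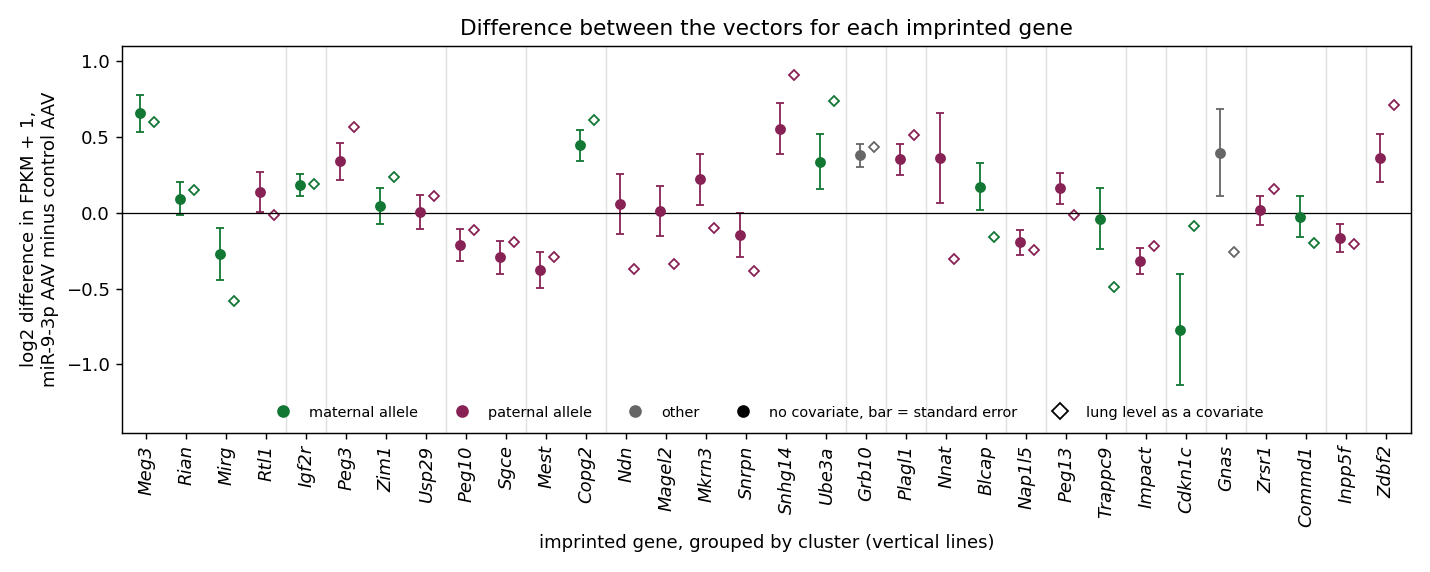
Difference of miR-9-3p AAV minus control AAV on the log2(FPKM + 1) scale for the 32 members tested, without a covariate (filled circles, bars are standard errors) and with a lung covariate (open diamonds). Colour gives the parental copy listed as expressed. Meg3 stands at 0.66 and 0.60, Nnat moves from 0.36 to -0.30 and Cdkn1c from -0.77 to -0.09.

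Of the members that stood lower without overlap, Cdkn1c had the largest log2 difference in size of all 32 tested, and the others lay between -0.17 and -0.38. Impact, a regulator of translation through GCN2, measured 30.3, 33.6 and 33.0 FPKM in the control AAV and 27.5, 25.0 and 24.6 FPKM in the miR-9-3p AAV libraries, a log2 difference of -0.32 (adjusted p = 0.0816, limma). Nap1l5, a relative of nucleosome assembly proteins that lies inside an intron of Herc3, measured 111, 109 and 104 FPKM against 93.5, 95.7 and 94.1 FPKM, a log2 difference of -0.20 (SE 0.08, adjusted p = 0.189). Inpp5f, a phosphoinositide phosphatase, had a log2 difference of -0.17 and Sgce, the sarcoglycan mutated in human myoclonus dystonia, one of -0.29. Peg10, the retrotransposon-derived gene that starts next to Sgce on the other strand, had one of -0.21, with overlapping groups. Cdkn1c, an inhibitor of cyclin-dependent kinases, measured 2.97, 3.04 and 8.79 FPKM against 2.43, 2.52 and 1.62 FPKM. Its highest value came from the library with the most lung RNA, where fibroblast and meningeal markers also summed to 36.9 FPKM against 8.995 to 16.2 FPKM in the others. Their part in the difference was not tested. The log2 difference went from -0.77 to -0.09 with the covariate.

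Nnat (chr2:157560078-157562522, plus strand), a small membrane protein of developing neurons, had the highest mean level of the set. It measured 540, 405 and 280 FPKM in the control AAV and 378, 537 and 640 FPKM in the miR-9-3p AAV libraries. In each group its order of libraries was also the reverse of that by lung level. The log2 difference was 0.36 (SE 0.30, adjusted p = 0.462, limma), or -0.30 with a lung covariate (adjusted p = 0.132). Gnas, which encodes a stimulatory G protein subunit and several imprinted transcripts that a gene-level value cannot separate, ran the same way, at 12.6, 10.6 and 7.18 FPKM against 9.05, 14.3 and 18.2 FPKM. Its log2 difference was 0.40 (adjusted p = 0.4), or -0.26 with the covariate. Blcap, whose introns hold Nnat, had one of 0.17, or -0.16 with the covariate.

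**Figure D4:**
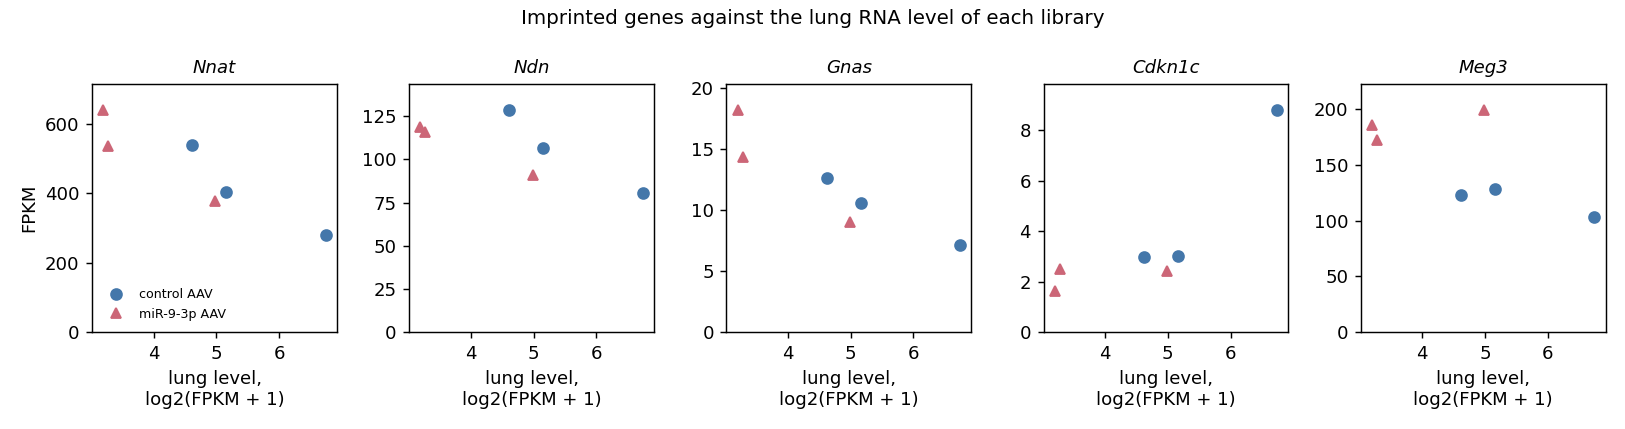
FPKM of Nnat, Ndn, Gnas, Cdkn1c and Meg3 against the lung level of each library, on the log2(FPKM + 1) scale; each circle (control AAV) or triangle (miR-9-3p AAV) is 1 library, and the vertical axes start at 0. Nnat is lower in libraries with more lung RNA within both groups, between 540 and 280 FPKM in the control AAV libraries, while Meg3 is split by group.

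In the fit with a lung covariate, 7 members besides Meg3 were called higher (Peg3, Snhg14, Ube3a, Zdbf2, Copg2, Grb10 and Plagl1), where 12.1% of all genes were. In the same fit 4 were called lower (Ndn, Nap1l5, Trappc9 and Mirg), where 17.2% of all genes were. With the Bpifa1 set as a batch term, the same 7 were called higher and Impact lower, against 9.91% and 8.74% of all genes. The lung level was not balanced between the groups, so what the covariate removes cannot be told apart in full from the group. Plagl1, a zinc finger factor that restrains growth, measured 3.83 to 4.93 FPKM in the control AAV and 5.43 to 5.96 FPKM in the miR-9-3p AAV libraries, with a log2 difference of 0.35 (adjusted p = 0.0962, limma) or 0.51 with the covariate (adjusted p = 0.0155). Over the 32 members the median slope on the lung level was 0.02 log2 per log2 unit, and over all genes -0.01.

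Exon length also moved with the differences. The 16 members with the longest exons had a median log2 difference of 0.26 and the 16 with the shortest one of 0.01. Over all genes the medians were 0.14 above and -0.07 at or below the members' median exon length. Once a trend on exon length had been taken out of every library, the log2 difference was 0.38 for Meg3, 0.25 for Grb10 and 0.20 for Snhg14, and that of Rian changed sign, from 0.09 to -0.18. It was 0.03 for Ube3a (adjusted p = 0.892, limma) and 0.13 for Peg3 (adjusted p = 0.42). For Zdbf2, Plagl1 and Copg2 it was 0.16, 0.26 and 0.44, and none of these members passed. The part of length in these differences was not tested further.

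The remaining members were not called or lay below the level at which genes were tested. Igf2r, the receptor that clears insulin-like growth factor 2, measured 7.56 to 7.71 FPKM in the control AAV and 8.69 to 8.88 FPKM in the miR-9-3p AAV libraries, a log2 difference of 0.18 (adjusted p = 0.161, limma). Peg13, a noncoding RNA within Trappc9, and Trappc9 itself, a part of a vesicle tethering complex, had log2 differences of 0.16 and -0.04. Zrsr1, a retrocopy related to splicing factors, and Commd1, the copper-handling gene that contains it, had 0.02 and -0.03. Kcnq1ot1, the long noncoding RNA that silences the Cdkn1c domain on the paternal copy, stayed at 0.225 to 0.297 FPKM against 0.337 to 0.534 FPKM over its 93092 bases, on 335 to 854 reads. Its groups did not overlap, with a ratio of the means of 1.55, and its great length rather than few reads placed it under 1 FPKM. Airn, the noncoding RNA that silences Igf2r outside neurons, and Asb4, an ankyrin repeat protein, stayed under 1 FPKM on 23 to 69 reads per library. H19, Igf2 and Phlda2, known mainly from placenta and fetal growth, rested on 0 to 10 reads per library, too few to show a difference.

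A list of 52 further genes reported as imprinted or lying in imprinted clusters, 51 of them in the table and 30 past the filter, had a median log2 difference of -0.05. It had 3 called higher and 1 lower, where 3.89% and 2.4% of all genes were. Ppp1r9a, the synaptic scaffold neurabin beside Sgce and Asb4, measured 7.23, 8.57 and 8.44 FPKM against 12.8, 11.7 and 11.3 FPKM (log2 difference 0.51, adjusted p = 0.0374, limma). Herc3, the ubiquitin ligase gene that contains Nap1l5, measured 7.25, 7.11 and 6.84 FPKM against 10.3, 9.89 and 9.74 FPKM (0.44, adjusted p = 0.0299), so host and intronic gene lay on opposite sides of 0. Cobl, an actin nucleator beside Grb10, measured 4.67, 4.85 and 4.08 FPKM against 6.92, 6.34 and 6.56 FPKM (0.46, adjusted p = 0.0407). The gene called lower was Ampd3, an AMP deaminase, at 3.74, 5.49 and 6.14 FPKM against 2.14, 1.96 and 1.53 FPKM (-1.07, adjusted p = 0.0299). With the exon length trend removed, Ppp1r9a, Herc3 and Cobl did not pass (adjusted p = 0.0823, 0.0647 and 0.0738, limma), while Ampd3 did (adjusted p = 0.0404).

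Factors that set, protect or read imprints were described from a list of 32 genes, of which 27 were tested, with a median log2 difference of 0.16. Of the 27, 1 was called higher and 1 lower, where 3.89% and 2.4% of all genes were, so both counts were near the background. Zfp445, a zinc finger protein that protects imprints in mouse and human, was called higher, at 22.9, 25.0 and 28.0 FPKM against 42.2, 35.6 and 36.7 FPKM (log2 difference 0.57, adjusted p = 0.0407, limma). With the exon length trend removed, Zfp445 did not pass (adjusted p = 0.0647, limma). Hdac1, a histone deacetylase, was called lower, at 14.9, 16.2 and 15.8 FPKM against 11.5, 12 and 11.9 FPKM (-0.38, adjusted p = 0.0427). Zfp57, the better known imprint protector, was at 18 to 25.0 FPKM against 26.2 to 28.7 FPKM and did not pass (0.31, adjusted p = 0.2). Ctcf, the insulator protein that reads the H19-Igf2 control region, differed by -0.04 on the log2 scale (adjusted p = 0.757).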

How the data were processed

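RNA sequencing libraries of 3 control AAV and 3 miR-9-3p AAV neuron samples were grouped by title and treatment label. Per the file headers, the authors deposited FPKM, 1 column per library. The submitters' processing notes list HISAT2 without a version, Cufflinks 2.2.1 and mm10. No source used here gives their annotation, strand setting or filters. Median-of-ratios factors of the deposited values were 1 in every library, so they already carry such a scaling. Of 55416 identifiers, 52135 matched GENCODE M21 (GRCm38), which gave symbols, positions and exon lengths. Dividing FPKM by each gene's step gave whole reads within 0.01 for 98.05% to 98.14% of values above 0; limma-voom on them called 541 genes higher and 425 lower.

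Genes that reached 1 FPKM in 3 or more libraries were tested as log2(FPKM + 1) with limma 3.58.1 (R 4.3.3, intensity trend, no covariate), which was tested on simulated data. The simulated libraries did not differ in lung RNA and had no exon length trend. They do not show how the fit performs on libraries that do. The scale understates fold changes of low genes, and reads limit their precision. The members and lists were chosen with earlier results of these data known. Full values are given for called members, the Dlk1-Meg3 and Snrpn-Ube3a members tested and members with a mean of at least 50 FPKM; of the further lists, called genes are named. Zfp57, Ctcf and other genes outside this rule were chosen after their values were seen. Every pair of libraries differed by more than sampling noise, so none was merged, which does not show that they were separate cultures. Alternatives are given in the closing section.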

Additional observations from a re-analysis of the deposited data

How the results depend on the processing

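Counted with Meg3, whose call is no test since the set was chosen for it, 2 members passed as higher. The number was 0 with a replicate block, 0 with no filter, 0 with the exon length trend removed (4, 8 and 4 at an unadjusted p under 0.05), 1 with no intensity trend and 1 when scaled to recovered read totals. It was 8 with the lung level as a covariate, 8 with a batch term for the lung set and 6 without the library highest in lung RNA in either group. The calls over all genes moved in these settings as well, as given below, so these counts are not a result about the members. For the last setting, the share of all genes called higher is not given here. Leaving out 1 library at a time gave 0 to 1, and 0 of the members other than Meg3. Without Meg3 each count above 0 in the other settings is lower by 1. Members called lower, 0 as reported, were 4 with the lung covariate and 1 with the lung set term, and 0 under each other alternative. Ndn, with a log2 difference of 0.06, was called at -0.37 with the lung covariate.

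Over all genes, 554 higher and 341 lower became 0 and 0 with the block, 109 and 67 with no filter, 1716 and 2446 with the lung covariate, 283 and 210 with the length trend removed, and 1410 and 1243 with the lung set term; 885 were lower without those same lung-rich libraries. Leaving out 1 library gave 0 to 460 higher and 0 to 272 lower, above 0 only without control AAV library 3. Same-numbered libraries did not deviate together (r of -0.65, 0.11 and -0.54). The highest r, 0.62, was between control AAV 3 and miR-9-3p AAV 1, the library with the most lung RNA in each group. Lung RNA was not taken out of these deviations, so they cannot decide whether the numbers pair the libraries. Across 19 alternatives, 39 of 600 member values changed sign, in 14 members. Median-of-ratios scaling changed nothing by construction. The lung set term and the scaling to read totals were chosen after seeing the data. Other causes of these shifts were not tested. Depth limits H19, Igf2, Phlda2 and Dio3, at 0 to 19 reads per library.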
